A study of Mus musculus with 46 samples.

Results

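In microglia that had just refilled the brain after depletion, 462 genomic regions had a called peak of the histone mark H3K27ac and no called peak in the other microglial populations profiled. Throughout, marked means that a peak was called, and H3K27ac signal was not compared between groups. They were chosen by their H3K27ac peaks alone. Replicate 1 of the repopulating cells had 30129 regions. Of these, 24477 overlapped a region of replicate 2 by at least 1 bp, and 462 of the 24477 overlapped no peak in any of the other 10 H3K27ac lists. All mice were male C57BL/6, and microglia were sorted on CD11b and CD45. The H3K27ac groups were wild type and had 2 libraries each: adult cells at 60 and 65 days with no treatment in the labels, Ki67Negative and Ki67Positive cells at postnatal day 8 (PND8), Ki67Negative and Ki67Positive cells at 90 days after 4 weeks of cuprizone, and repopulating Ki67Positive cells at 90 days. Ki67 is a protein of cycling cells. Repopulating mice had received PLX5622 in the diet from day 70 for 17 days and had then recovered for 3 days. RNA was sequenced from wild-type adults at 90 days and from PND8 and repopulating mice (75 days, PLX5622 from day 55, the same 17 and 3 days) that carried a Ki67-rfp reporter, 2 libraries per group. ATAC-seq, which marks open chromatin, had 1 library each of adult (80 days), PND8 Ki67Positive and repopulating Ki67Positive cells (75 days, PLX5622 from day 55). For the latter 2 the titles name the Ki67rfp reporter and the genotype label says wild type. For the Ki67 fractions, cells for H3K27ac were fixed and stained for Ki67, whereas cells for RNA were sorted on the reporter. The 2 assays thus define Ki67Positive cells in different ways, and in repopulation also at different ages. Adult cells had no Ki67 fraction in either assay, so each comparison with adult sets a Ki67 fraction against cells not split by Ki67.

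H3K27ac is acetylation of lysine on histone H3 and is found at active promoters and enhancers, the distal elements from which transcription factors raise the activity of a gene. Enhancers are more cell-state specific than promoters, and microglia, the resident macrophages of the brain, change theirs with age, injury and environment. PLX5622 inhibits CSF1R, the receptor whose signal microglia need to survive. When the drug is withdrawn, the few survivors divide and refill the tissue within days. Cuprizone is a copper chelator that strips myelin and makes microglia proliferate, and PND8 is an age at which microglia still divide.

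Few of the 462 regions lay at promoters. In the RefSeq table of promoter windows (GRCm38.p6, 250 bases before to 50 after each start site), 18 of 32851 windows, of 16 genes, overlapped a region. Of these, 3 are shown because they overlapped a region and their genes were also higher in repopulating cells than in adult cells. The window of Tmem238, also higher, overlapped a region by 23 bases only and is not shown. Capitals mark bases inside a peak of the repopulation ATAC list, and lower case the remainder.
St8sia1: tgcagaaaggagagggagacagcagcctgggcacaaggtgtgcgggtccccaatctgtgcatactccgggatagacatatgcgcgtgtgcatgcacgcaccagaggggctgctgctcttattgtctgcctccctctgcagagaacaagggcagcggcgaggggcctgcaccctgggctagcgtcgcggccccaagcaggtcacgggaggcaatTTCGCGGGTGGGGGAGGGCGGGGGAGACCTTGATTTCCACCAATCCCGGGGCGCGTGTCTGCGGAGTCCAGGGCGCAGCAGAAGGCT
Stbd1: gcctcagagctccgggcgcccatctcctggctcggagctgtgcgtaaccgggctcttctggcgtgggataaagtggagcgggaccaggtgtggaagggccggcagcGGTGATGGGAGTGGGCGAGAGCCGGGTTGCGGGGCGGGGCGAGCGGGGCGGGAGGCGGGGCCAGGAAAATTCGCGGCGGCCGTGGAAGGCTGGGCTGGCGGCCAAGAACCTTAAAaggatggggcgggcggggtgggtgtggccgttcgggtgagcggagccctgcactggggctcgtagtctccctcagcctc
Jazf1: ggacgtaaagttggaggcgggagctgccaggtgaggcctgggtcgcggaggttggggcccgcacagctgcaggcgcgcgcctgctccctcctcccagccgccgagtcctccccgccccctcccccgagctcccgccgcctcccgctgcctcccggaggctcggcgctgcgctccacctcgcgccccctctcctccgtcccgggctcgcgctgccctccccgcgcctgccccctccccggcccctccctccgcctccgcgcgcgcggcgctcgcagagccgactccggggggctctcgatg
The St8sia1 window is chr6:142964403-142964702 on the minus strand and lies entirely within a region of 3056 bp, the widest of the 462. Its 87 capital bases belong to an ATAC peak of repopulation, and neither the adult nor the PND8 ATAC list had a peak in this window. Elsewhere in the same region both did, so the region as a whole was open in all 3 lists. The Stbd1 window is chr5:92602801-92603100 on the plus strand, of which 75 bases lay in the region. Its open stretch of 115 bases was listed in PND8 and repopulation and not in adult. The Jazf1 window is chr6:53068575-53068874 on the minus strand, all 300 bases of it inside the region, and no ATAC list had a peak there. Just downstream, outside the window and the region, all 3 ATAC lists had a peak. From the start site it lay at 0.316 to 0.428 kb in adult, 0.312 to 0.430 kb in PND8 and 0.299 to 0.413 kb in repopulation. GC content was 64.7% for St8sia1, 70.7% for Stbd1 and 79.0% for Jazf1, against a median of 52.7% over all windows. None of 13 short motifs searched on both strands was in these windows. Among all 18 overlapping windows the ISRE-like letters GAAANNGAA, bound by interferon regulatory factors, were in 4 windows of 3 genes (AI847159, Gm33786 and Rapgef2, whose 2 windows overlap each other), or 22.2%, against 8.56% of all windows. The CRE letters TGACGTCA were in 2 overlapping windows of Bend6, against 1.79% of all windows. The RUNX letters TGTGGTTA (Gm13293), the STAT letters TTCCNGGAA (Gm33786) and the AP-1 letters TGANTCA (Nfic) were in 1 window each, against 0.752%, 1.15% and 7.81% of all windows. The other 8 were in none of the 18: PU.1-like GAGGAAGT (3.20% of all windows), PU.1-IRF composite GGAANNGAA (8.24%), NF-kB GGANTTTCC (1.25%), C/EBP TTGCNNCAA (2.08%), the MiT family E-box TCACGTGA (0.974%), MAF TGCTGA (19.5%), E2F TTTCCCGC (1.07%) and MEF2 CTAAAAATA (0.517%). The ISRE-like and PU.1-IRF letters can overlap in 1 sequence. With 18 windows these shares are a description only.

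The regions were narrow and mostly modest in height. Width ran from 500 bp to 3056 bp with a median of 664 bp, and 164 regions had the smallest width the authors' stitching returns. All 24477 regions shared by the 2 repopulation replicates had a median of 1760 bp. Regions marked only in PND8 and only in cuprizone, chosen by the same rule, were as narrow, with medians of 630 and 658 bp. The authors' peak score, used only to rank regions within a list, ran from 14 to 128 with a median of 20. That median sits at percentile 21.8 of the replicate 1 list, and the matching replicate 2 peaks had a median at percentile 17.6 of theirs. Most of the regions thus ranked low within the repopulation lists themselves. Regions marked only in PND8 and only in cuprizone also ranked low, with medians at percentiles 14.4 and 16.6 of their own lists. At the inner edge of the rule, the regions linked to Dmac1, Il2ra and Smg1 overlapped replicate 2 by 1, 3 and 6 bp, and the region linked to Med13l lay 8 bp from a peak of another list. Just outside it, regions near Wnt11 and Ankrd44 were lost to 4 and 6 bp of overlap with 1 other list. Cuprizone Ki67Positive replicate 2 alone removed 144 of the shared regions, more than any other list.

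The regions lay farther from start sites than shared regions did, as did regions marked only in PND8 or only in cuprizone. Only 15 regions (3.25%) lay within 1000 bp of a transcription start site (TSS) of the count table, against 36.3% of the shared regions, while 265 (57.4%) lay in gene bodies and 182 (39.4%) between genes. The median distance to the nearest TSS was 27307 bp, against 8766 bp. For regions marked only in PND8 and only in cuprizone it was 26252 and 33774 bp, and 7.92% and 3.54% lay within 1000 bp of a TSS. Each region was linked to the gene of its nearest TSS, which gave 429 linked genes. Of these, 28 had 2 or more regions and 5 had 3: Cd36, Runx3, Jazf1, Ankrd11 and Papola. Of the 462 regions, 293 lay downstream of the linked TSS and 158 upstream, and 11 held it. Whether a region acts on its linked gene was not tested. Of the 429 linked genes, 222 (51.7%) had a TSS inside a peak of both adult lists and 267 (62.2%) in both repopulation lists, against 36.3% and 43.2% of all 20999 genes in the table, and 51 had one in both repopulation lists and not in both adult lists. Marks profiled in the other states touched few of the regions. H3K4me3, a promoter mark profiled in adults at 75 days, overlapped 7.79% and 8.01% of the regions in its 2 lists, against 51.9% and 52.5% of shared regions. Rpb2, a subunit of RNA polymerase II, was profiled in 2 adult libraries (60 and 65 days by label) and in 1 library of PND8 Ki67Positive cells. It overlapped 1.08% and 0.649% of the regions in the adult lists and 8.44% in the PND8 list, against 43.0%, 31.9% and 69.8% of shared regions. Of regions marked only in PND8 and only in cuprizone, the first H3K4me3 list overlapped 13.7% and 4.48%. The PND8 Rpb2 list overlapped 26.1% and 4.25% of them.

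Open chromatin was listed at most of the regions in repopulation and at fewer in the other states. Of the 462, 289 (62.6%, 95% exact binomial interval 58.0 to 67.0) overlapped a repopulation ATAC peak, 193 (41.8%, 37.2 to 46.4) a PND8 peak and 169 (36.6%, 32.2 to 41.2) an adult peak. All 3 lists had a peak at 122 regions, and no list had one at 150 (32.5%). Repopulation alone had a peak at 79 regions (17.1%), against 8 for adult alone and 8 for PND8 alone. Among all shared repopulation regions the 3 shares were 93.4%, 88.7% and 90.5%, and 2.17% were open in the repopulation list alone. The same rule applied to PND8 Ki67Positive gave 505 regions marked only there, of which 4.16% were open in the repopulation list alone, and applied to cuprizone Ki67Positive it gave 424, of which 14.4% were. The repopulation ATAC list was also the longest, with 95411 peaks from 8585406 tags, against 75296 from 7376675 in PND8 and 71642 from 6676695 in adult. The part of list length in the result was not tested. Each ATAC state had 1 library, so no difference between states could be tested, and intervals cover counting error only.

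**Figure D1:**
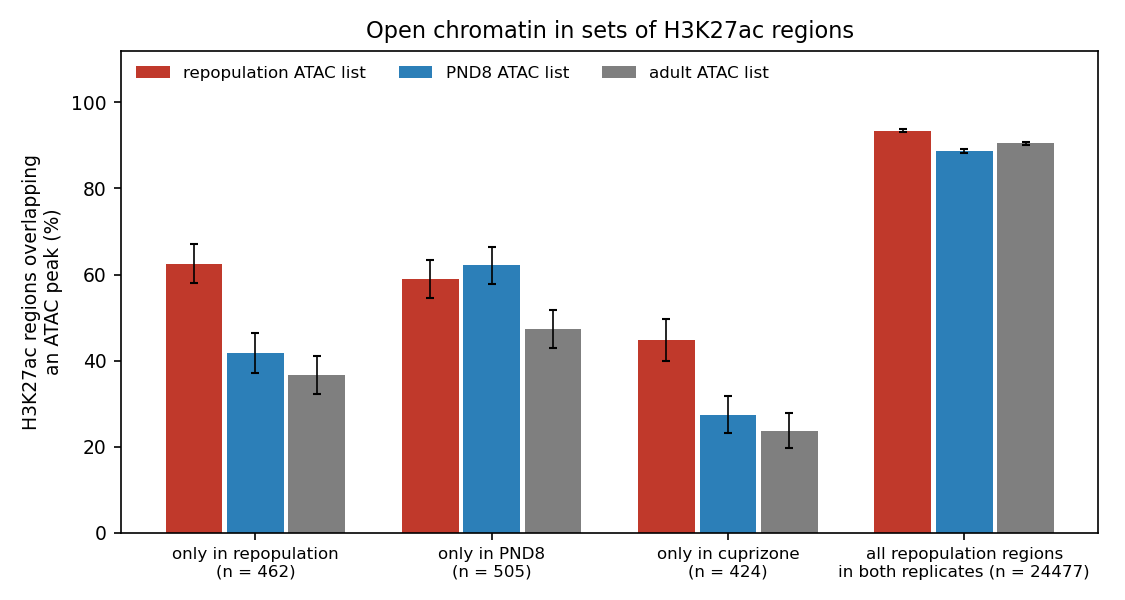
Share of H3K27ac regions (y axis, %) that overlapped a peak of the repopulation, PND8 and adult ATAC lists, for regions marked only in repopulation, only in PND8, only in cuprizone and for all regions in both repopulation replicates; lines are 95% exact binomial intervals. Regions marked only in repopulation reach 62.6% with the repopulation list and 36.6% with the adult list, whereas all shared regions reach 93.4% and 90.5%.

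The highest-scoring regions were open least often and lay close to peaks of the other lists. Those linked to Pag1, Skil, Tal1, Actg1, Actr3, Fam102b, Hk2, Gpr18 and Ccdc12 had scores of 86 to 128, and none of these overlapped a repopulation ATAC peak. The Pag1 region lay 532 bp, the Tal1 region 128 bp and the Fam102b region 81 bp from a peak of another list. Over all regions with a score of 40 or more, 28.8% of 66 overlapped a repopulation ATAC peak, against 67.2% of 174 between 20 and 40 and 68.9% of 222 below 20. By distance, 34.7% of the 75 regions under 1 kb from a peak of the other lists were open in repopulation, 57.4% of 136 at 1 to 5 kb, 72.8% of 151 at 5 to 20 kb and 75.0% of the 100 beyond 20 kb. These classes were set after the values were seen.

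**Figure D2:**
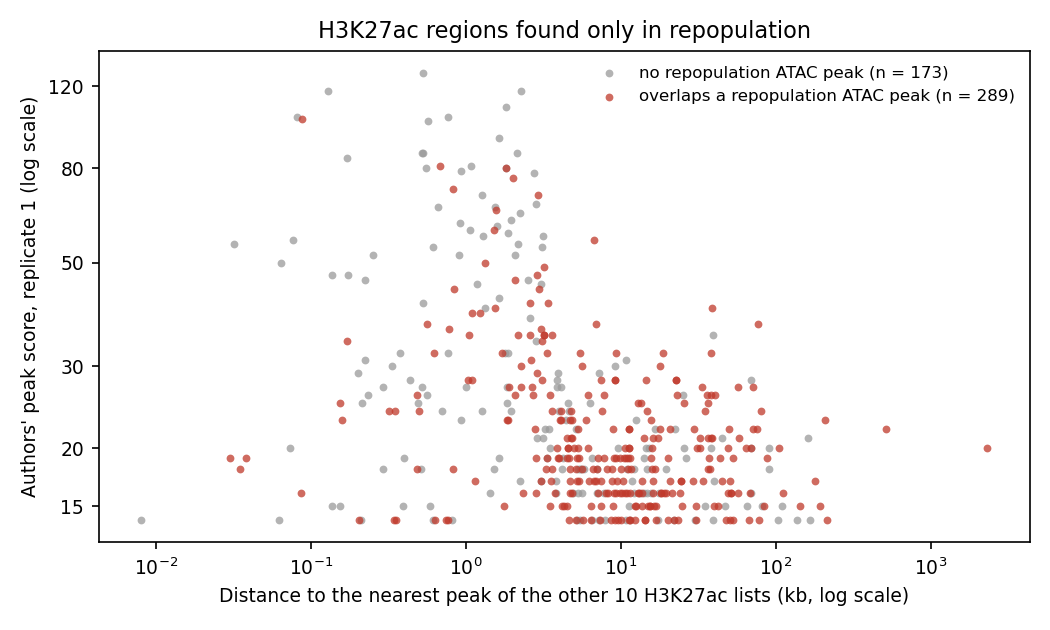
Each point is 1 of the 462 regions, by its distance to the nearest peak of the other 10 H3K27ac lists (x axis, kb, log scale) and its peak score in replicate 1 (y axis, log scale); red points overlap a repopulation ATAC peak (n = 289) and grey points do not (n = 173). High scores gather within a few kb of peaks of the other lists, where grey points are frequent, and regions farther away have low scores and are mostly red.

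As a group, the linked genes were changed against adult cells about as often as all genes, and were more often higher than in PND8 cells. Of the 429 linked genes, 344 passed the filter on low counts and were tested with edgeR's quasi-likelihood test over all 12230 genes with Benjamini-Hochberg adjustment at 0.05. In repopulating Ki67Positive against adult cells, 77 (22.4%) were higher and 81 (23.5%) lower, where 23.9% and 21.0% of all genes tested were. In repopulating against PND8 Ki67Positive cells, 101 (29.4%) were higher and 46 (13.4%) lower, where 16.7% and 14.2% of all genes were. The median log2 difference of the linked genes was -0.03 against adult and 0.11 against PND8, beside -0.01 and 0.00 over all genes. PND8 Ki67Positive against adult cells gave 59 (17.2%) higher and 113 (32.8%) lower linked genes, where 25.1% and 24.3% of all genes were. These comparisons share libraries and are not independent of each other. For the 11000 genes linked to all shared repopulation regions, 17.9% of those tested were higher than in PND8 and 14.2% lower. The genes linked to regions marked only in PND8 had 10.4% higher and 33.5% lower in the same comparison, and those linked to regions marked only in cuprizone 23.1% and 23.4%. The share higher against PND8 was 31.0% (18.1% of all genes) with the numeric code of the column headers as a batch term, which 1 PND8 and 1 repopulation Ki67Positive library share. Both adult RNA libraries carry a code of their own, and their labels name no reporter and no Ki67 fraction. Against adult, the effects of code, reporter, Ki67 sorting and state thus cannot be told apart. For these bulk libraries, fewer cells of a type and less RNA per cell cannot be told apart either.

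**Figure D3:**
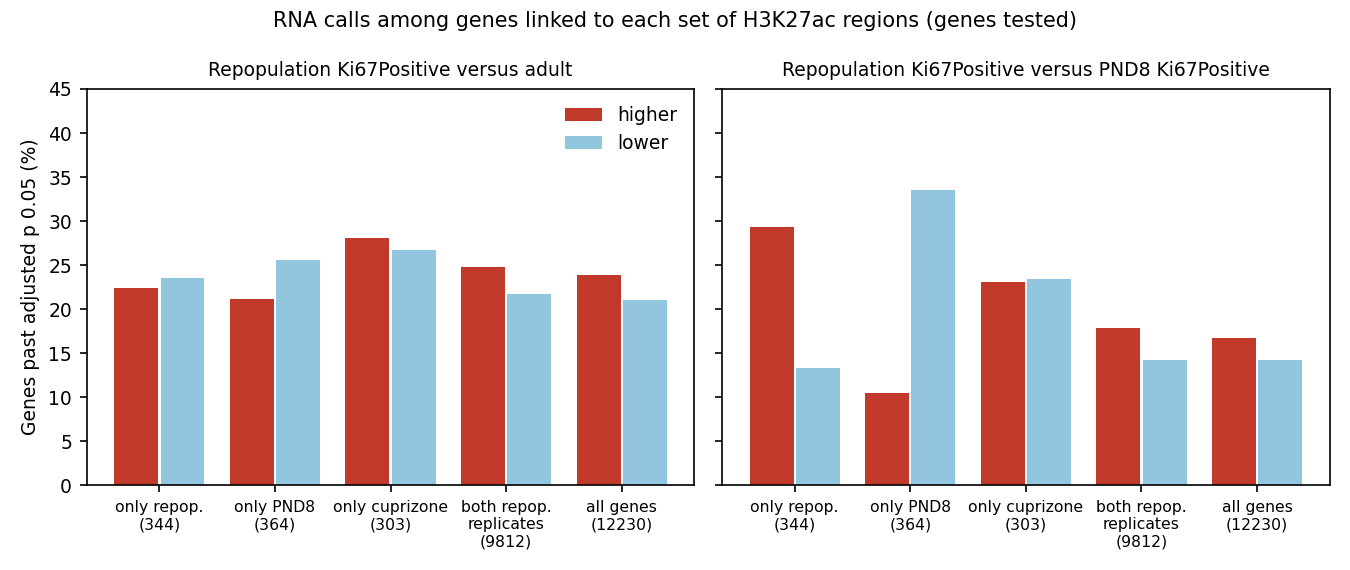
Share of tested genes (y axis, %; number tested under each name) past an adjusted p of 0.05 and higher (red) or lower (blue) in repopulating Ki67Positive cells, for genes linked to each set of H3K27ac regions and for all genes. Against adult cells (left) the sets sit between 21.2% and 28.1% higher; against PND8 Ki67Positive cells (right) genes linked to regions marked only in repopulation reach 29.4% higher and those marked only in PND8 33.5% lower.

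Linked genes with a region near the TSS, or with a TSS marked in repopulation and not in adult, were more often higher against adult than other linked genes. Of the 77 tested genes with a region within 10 kb of the TSS, 27 (35.1%) were higher than in adult cells. Of 213 at 10 to 100 kb 44 (20.7%) were higher, and of 63 beyond 100 kb 8 (12.7%). Among all genes tested, 23.9% were higher and 21.0% lower. In the same order of distance, 18, 49 and 14 genes were lower, or 22.2% to 23.4% of each class. A gene with several regions can stand in more than one of these classes. Of the 50 tested genes whose TSS was marked in both repopulation lists and not in both adult lists, 22 (44.0%) were higher and 8 lower. Where the TSS was already marked in adult, 38 of 221 (17.2%) were higher and 58 (26.2%) lower. Genes with the same marking of the TSS but no linked region were not counted. Genes whose region was open in the repopulation list alone were higher in 9 of 58 cases (15.5%) and lower in 11 (19.0%). These classes were set with the values known, and the differences between them were not tested.

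Cd36 encodes a scavenger receptor for fatty acids and oxidised lipids. Its regions lay 6543, 10666 and 43416 bp upstream of the TSS, and replicate 2 had peaks over all 3. The middle one was open in PND8 and repopulation, the farthest in repopulation alone, and the nearest in no list. Within 60 kb of the Cd36 TSS the adult lists had 0 and 1 H3K27ac peaks, the PND8 and cuprizone lists 1 or 2, and both repopulation lists 5. Of the 5 in replicate 1, 3 were the regions themselves, so the rule fixed part of this difference. Not every linked gene had the most peaks in repopulation. Cd44 had 3 and 3 there, against 4 and 5 in PND8 Ki67Positive. Ch25h had 11 and 10, against 12 and 11 in cuprizone Ki67Negative. Cd36 RNA, in CPM (counts scaled to library size), was 2.20 and 1.22 in adult, 3.86 and 11.3 in PND8 Ki67Positive, 178 and 264 in repopulating Ki67Negative and 233 and 312 in repopulating Ki67Positive libraries. Repopulation stood far above both other states in either Ki67 fraction, with no overlap. The log2 difference was 7.29 (SE 0.45, adjusted p = 3.72e-08, edgeR) against adult and 5.17 (SE 0.37, adjusted p = 2.23e-07) against PND8 Ki67Positive.

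St8sia1 encodes the sialyltransferase that makes the ganglioside GD3. Its promoter region, printed above, had a score of 32 and lay 9260 bp from any peak of the other lists. St8sia1 RNA was 5.67 and 6.97 CPM in adult, 2.75 and 4.51 in PND8 Ki67Positive, and 266 and 300 in repopulating Ki67Positive libraries. Groups did not overlap, and the log2 difference was 5.48 (SE 0.18, adjusted p = 7.17e-10, edgeR) against adult and 6.28 (SE 0.20, adjusted p = 1.34e-10) against PND8. Within 60 kb of its TSS repopulation had 8 and 5 H3K27ac peaks, where the adult lists had 0 and 1, the PND8 lists 1 or 2, the cuprizone Ki67Negative lists 2 and 3 and the cuprizone Ki67Positive lists 3 and 4. Of the 8 in replicate 1, 1 was the region itself. Ch25h encodes cholesterol 25-hydroxylase, which makes an oxysterol. Its region lay 71355 bp downstream of the TSS and was in no ATAC list. Ch25h rose from 1.73 and 1.71 CPM in adult to 22.4 and 33.2 in repopulating Ki67Positive libraries, a log2 difference of 4.00 (SE 0.44, adjusted p = 9.61e-06, edgeR). Acat1, a mitochondrial acetyl-CoA acetyltransferase, rose by less, with a log2 difference of 0.86 (SE 0.11, adjusted p = 3.21e-05, edgeR).

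Fbn2 and Cd44 were the linked genes of the matrix, adhesion and migration list. Fbn2 encodes fibrillin-2, a microfibril protein. A region with a score of 15 held its TSS, 46939 bp from any peak of the other lists, and no ATAC peak overlapped it. Close by, the repopulation ATAC list had peaks at -0.697 to -0.583, 0.084 to 0.198 and 0.689 to 0.803 kb from the TSS. The adult and PND8 ATAC lists had none there. The matching replicate 2 H3K27ac peak, at -0.487 to 0.257 kb, covered the middle ATAC peak. Fbn2 had 0 counts in both adult libraries, 0 and 0.116 CPM in PND8 Ki67Positive, 39.1 and 50.3 in repopulating Ki67Negative, and 48.8 and 61.6 in repopulating Ki67Positive libraries. Against the CPM that 3 counts give in the adult libraries this was at least 155-fold higher (adjusted p = 6.22e-09, edgeR). Cd44, the hyaluronan receptor, with a region 46351 bp upstream, rose from 5.20 and 4.28 CPM in adult to 45.3 and 50.2, a log2 difference of 3.33 (SE 0.25, adjusted p = 2.64e-07, edgeR). It was also above PND8 Ki67Positive, at 13.3 and 18.5 CPM. Iqgap1, a scaffold of the actin cytoskeleton, had a region 23633 bp into the gene that was open in all 3 states. Its RNA was 27.4 and 24.1 CPM in adult, 39.5 and 52.4 in PND8 Ki67Positive, 101.1 and 108.0 in repopulating Ki67Negative and 202 and 233 in repopulating Ki67Positive libraries, so every group stood apart. The actin genes Actg1 and Actr3 rose less against adult, with log2 differences of 0.83 and 0.68 (adjusted p = 0.000205 and 0.000431, edgeR).

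Runx3 and Jazf1 had 3 regions each. Runx3, a transcription factor, binds RUNX sites and acts in lymphocytes and dendritic cells. Of its 3 regions, 2 lay in the gene body, 32135 and 38682 bp into it, and 1 lay 44953 bp upstream. The one at 32135 bp was open in adult and PND8 and not in repopulation, and the one at 38682 bp in all 3 ATAC lists. The upstream one was open in PND8 and repopulation, so none was open in repopulation alone. A peak about 50 kb upstream was in all 12 H3K27ac lists, and one in the gene body before the 3 regions was in every list but adult replicate 1. Runx3 RNA was low throughout: 0.578 and 1.34 CPM in adult, 0.661 and 1.16 in PND8 Ki67Positive, 3.64 and 6.55 in repopulating Ki67Negative and 6.13 and 12.5 in repopulating Ki67Positive libraries. The log2 difference was 3.26 (SE 0.54, adjusted p = 0.000290, edgeR) against adult and 3.33 (SE 0.54, adjusted p = 0.000417) against PND8. Jazf1, a zinc finger protein, had a region at the TSS and 2 more over 100 kb downstream in the gene, and its RNA was 0.925 and 0.855 CPM in adult against 5.55 and 4.17. The log2 difference was 2.44 (SE 0.44, adjusted p = 0.000578, edgeR), and against PND8 it was 0.97 (adjusted p = 0.0667). Of the other linked transcription factors, Jun fell by 0.98 on the log2 scale against adult (adjusted p = 0.00367, edgeR), Mef2c, a factor of mature microglia, fell by 0.30 (adjusted p = 0.0125) and Klf2 rose by 1.12 (adjusted p = 0.0162). Ankrd11 and Papola, with 3 regions each, did not pass the test, with log2 differences of 0.07 (SE 0.08) and -0.03 (SE 0.10) against adult.

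**Figure D4:**
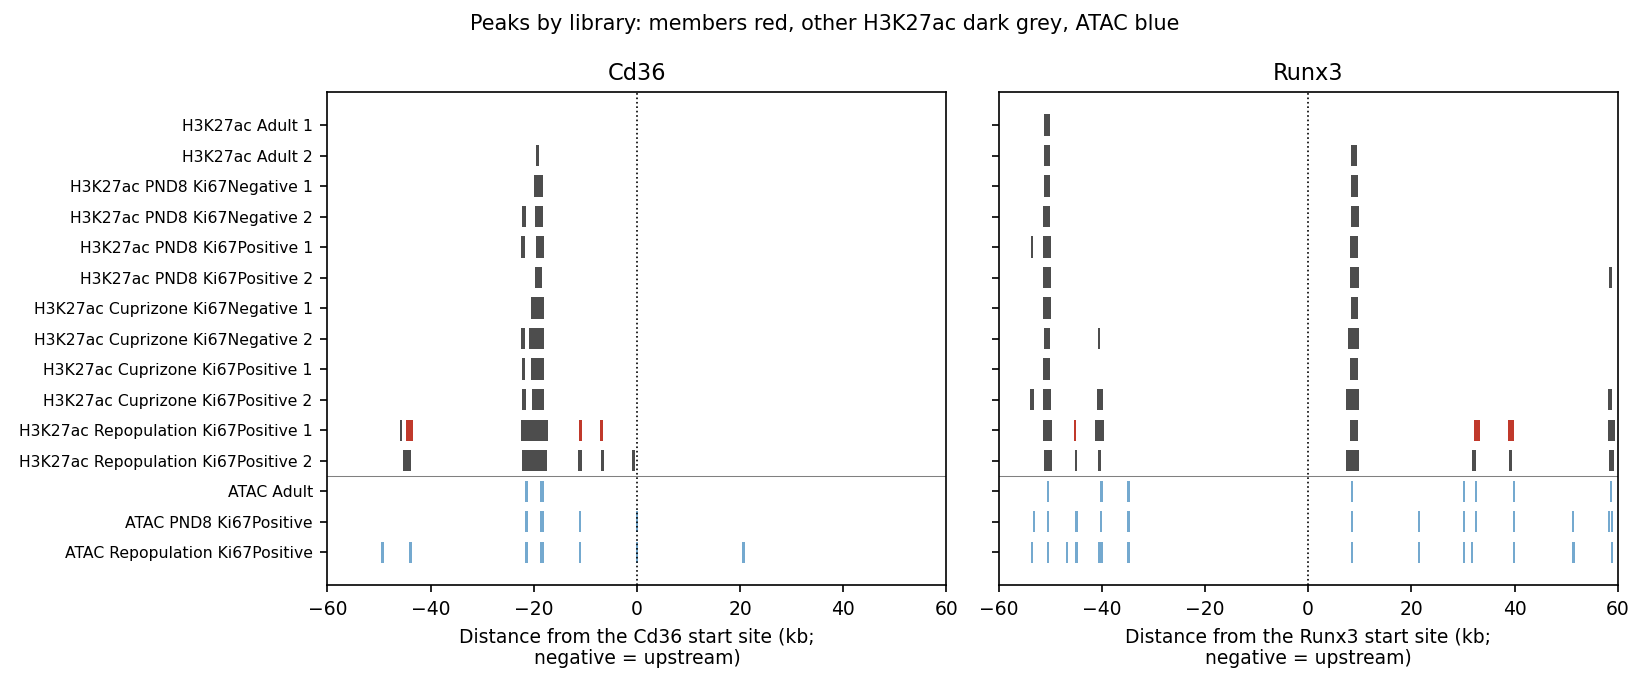
H3K27ac and ATAC peaks of each library (rows) by distance from the Cd36 and Runx3 start sites (x axis, kb, negative upstream); red bars are regions marked only in repopulation, dark grey bars other H3K27ac peaks and blue bars ATAC peaks, each drawn at least 0.5 kb wide. At Cd36 both repopulation libraries have H3K27ac peaks near 7, 11 and 44 kb upstream that no other H3K27ac library has, as the rule requires. They stand beside a peak near 19 kb that most libraries share.

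Further genes rose against adult cells. Tespa1, a signalling protein known from thymocytes, had a region over its TSS, and its RNA was 0 and 0.122 CPM in adult, 0 in both PND8 Ki67Positive libraries, and 5.32 and 8.64 in repopulating Ki67Positive libraries (adjusted p = 0.000121, edgeR). Syt6, a synaptotagmin, rose from 6.48 and 5.38 to 103 and 86.4 CPM, and Stbd1, a glycogen-binding protein, from 5.90 and 9.41 to 14.0 and 14.1 CPM (adjusted p = 8.49e-10 and 0.0265). Tmem238, with a region 27 bp from its TSS, had 0.463 and 0.122 CPM in adult and 1.97 and 2.59 in repopulation (adjusted p = 0.00525). Atp2b4, a plasma membrane calcium pump, was 0.463 and 0.855 CPM in adult and 18.4 and 18.7 in repopulating Ki67Positive libraries, and higher still in PND8 Ki67Positive, at 34.4 and 29.6. Rmi2, Oip5, Cdca7l and Mcm5 were also higher than in adult in both PND8 Ki67Positive and repopulating cells. Oip5 and Rmi2 act in chromosome segregation and repair and Mcm5 in the replicative helicase. Mcm5 stood at 11.8 and 13.2 CPM in adult, 104 and 111 in PND8 Ki67Positive and 86.3 and 124 in repopulating Ki67Positive libraries, so the latter 2 groups overlapped. Ckm, a muscle creatine kinase, had 0 counts in adult and 0.463 and 1.87 CPM in repopulation (adjusted p = 0.0278, edgeR), and lost the call without either adult library, at adjusted p = 0.113 and 0.106, or without repopulating Ki67Positive replicate 2, at 0.181.

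**Figure D5:**
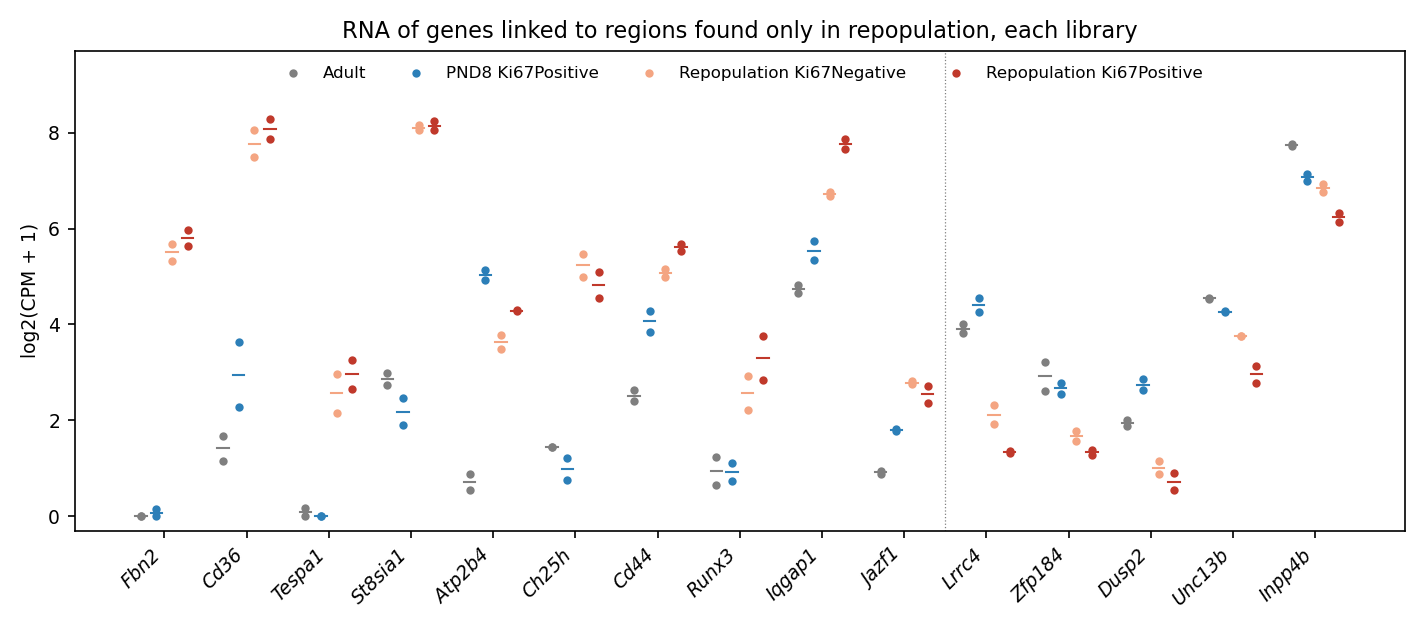
RNA level of 15 linked genes in each library (y axis, log2(CPM + 1); bars are the mean of 2 libraries) in adult, PND8 Ki67Positive, repopulating Ki67Negative and repopulating Ki67Positive cells; genes left of the dotted line were higher and genes right of it lower than in adult. Fbn2, Cd36, Tespa1 and St8sia1 each stand higher in both repopulating fractions than in adult and PND8, though Tespa1 stays low on the scale at 5.32 and 8.64 CPM, and Atp2b4 is highest in PND8.

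Regions found only in repopulation also lay beside genes whose RNA fell. Lrrc4, a leucine-rich repeat adhesion protein, was 15.04 and 13.20 CPM in adult, 22.58 and 18.03 in PND8 Ki67Positive and 1.504 and 1.583 in repopulating Ki67Positive libraries. It fell by 3.19 on the log2 scale against adult (SE 0.27, adjusted p = 7.48e-07, edgeR). Its region lay inside Snd1, 64 bp from a peak of another list. Unc13b, of vesicle priming, fell by 1.69 (adjusted p = 8.55e-06) and Inpp4b, a phosphoinositide phosphatase, by 1.52 (adjusted p = 2.79e-05). Inpp4b stood at 211 and 215 CPM in adult and 79.3 and 69.2 in repopulation. Dusp2, a phosphatase of MAP kinases, fell by 2.12 (adjusted p = 0.00271) and Zfp184, a zinc finger protein, also by 2.12 (adjusted p = 0.000480). Hes1, a repressor induced by Notch, was 17.5 and 12.1 CPM in adult and 4.05 and 6.91 in repopulation (adjusted p = 0.00575), but 1.10 and 0.925 in PND8 Ki67Positive. Hes1 lost the call against adult without adult replicate 1, at adjusted p = 0.0737, or without repopulating replicate 1, at 0.0687. The low genes Cd24a, Ahnak, Plbd1 and Ankdd1b were also called. Cd24a had 2.20 and 0.978 CPM in adult and 0 counts in repopulation, at least 4.08-fold lower at the floor of 3 counts. Summed CPM of 11 monocyte and neutrophil markers was 75.3 to 251 in adult and 15.8 to 18.5 in repopulating Ki67Positive libraries, with 5 of the 11 at 0 in the latter, and its part in the falls of Cd24a and Plbd1 was not tested.

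In the interferon-stimulated list, the share of genes with a region within 100 kb was near that of all genes. In the cell cycle list, which also rose strongly, that share was above it, from few genes. Of 50 interferon-stimulated genes, 46 of the 49 tested were higher in repopulating Ki67Positive than adult cells and 1 was lower, with a median log2 difference of 2.28. None of the 50 was linked to one of the 462 regions, and 2, Cxcl10 and Eif2ak2, had a region within 100 kb of the TSS (4.00%, against 5.25% of all genes in the table). Their start sites were marked in both adult lists for 24 of 50 (48.0%) and in both repopulation lists for 38 (76.0%), against 36.3% and 43.2% of all genes in the table. Of the 46 cell cycle genes, 42 were higher and 1 lower, and 4 were linked (Ccnd3, Cdk6, Mcm5 and Myc). The repopulating cells compared were sorted as Ki67Positive and the adult cells were not, and the part of the sort in these rises was not tested. A region lay within 100 kb of 5 of the 46 (10.9%, against the same 5.25% of all genes), and start sites were marked in both adult lists for 14 (30.4%) and in both repopulation lists for 42 (91.3%). Over the gene lists the share with a region within 100 kb ran from 2.94% (myeloid transcription factors) to 20.0% (lipid uptake and efflux), each from few genes. The counts of higher and lower genes in each list stand beside 23.9% and 21.0% of all genes tested. Of 24 matrix, adhesion and migration genes tested, 12 were higher and 5 lower, and Fbn2 and Cd44 were linked. Of 13 lipid uptake and efflux genes tested, 6 were higher and 3 lower, and Cd36 and Acat1 were linked. Acat1, the mitochondrial acetyltransferase described above, was in this list as set and counts in its 20.0%. Of 24 homeostatic microglia genes, 2 were higher and 11 lower, and Jun, Klf2 and Mef2c were linked. Of 34 myeloid transcription factor genes tested, 3 were higher and 16 lower, and Jun, Mef2c and Runx3 were linked. Of 28 disease-associated microglia genes tested, 11 were higher and 7 lower, and Ch25h was linked. Of 26 NF-kB and chemokine genes tested, 5 were higher and 8 lower, and only Ccl12 was linked. The chemokine Ccl12, with a region 20667 bp upstream, was 17.6 and 16.1 CPM in adult and 40.7 and 52.0 in repopulation (adjusted p = 2.02e-05, edgeR).

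Some linked genes differed between the Ki67 fractions of repopulation, and how many depended on whether the fit took account of libraries that share a header code. Between Ki67Positive and Ki67Negative repopulating cells 1 linked gene was higher, Iqgap1, with a log2 difference of 1.06 (adjusted p = 0.000339, edgeR), and 8 were lower (0.291% and 2.33%), where 1.87% and 0.867% of all genes were. Those lower included Syt6, by 0.61 on the log2 scale (adjusted p = 0.00881), and Unc13b, by 0.86 (adjusted p = 0.0314). Both fractions of a replicate number shared a header code, and with that code as a term, which pairs the fractions within each state, 10 of 342 linked genes were higher and 20 lower, and Iqgap1, Syt6 and Unc13b were again called (adjusted p = 7.79e-07, 0.000282 and 0.0181). Over all 12156 genes in that fit 510 were higher and 488 lower. Repopulating Ki67Negative against adult cells gave 76 (22.1%) higher and 63 (18.3%) lower linked genes, where 21.5% and 17.6% of all genes were. No H3K27ac list of repopulating Ki67Negative cells was analysed here, so the regions cannot be assigned to dividing cells as such.

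The libraries held between 15233543 and 22888521 H3K27ac tags and between 6865903 and 10287876 RNA counts. The 2 repopulation H3K27ac libraries carry different numeric header codes, each shared with libraries of other groups, and the part of the code in the regions was not tested. All 8 microglia markers were present in every RNA group, with summed CPM of 7340 to 7740 in repopulating Ki67Positive and 8582 to 8677 in adult libraries. Summed CPM of 10 border macrophage markers was 780.0 to 834.0 in repopulating Ki67Positive, 1407 to 1514 in adult and 2040 to 2049 in PND8 Ki67Positive libraries. In the same order, 6 astrocyte markers had 408 to 420, 238 to 245 and 53.6 to 373. For 5 endothelial markers the values were 27.1 to 29.8, 67.7 to 69.3 and 46.8 to 47.6. The part of these in the results was not tested.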

How the data were processed

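Peaks were called by the authors with HOMER 4.11 on each library separately, per the file headers, and mm10, STAR 2.7.0f and Bowtie2 2.3.4.1 stand in the submitters' processing notes. The ATAC headers name no build, and their positions were read as mm10. The signal of a peak in the deposited lists is its tag count scaled to a common library size, and the score is the authors' peak score; both only rank or describe peaks within a list. The deposited gene counts are unadjusted tags over exons, with 1 transcript per gene, per the file headers, and TPM values deposited by the authors from the same tool entered alternatives only. The strand setting of the counting is not given in the sources used here, so overlapping genes may share reads. Overlaps were computed with bedtools 2.31.1. Counts were tested with edgeR 4.0.16 (TMM, filterByExpr by group, 1 quasi-likelihood fit over all 10 libraries), with DESeq2 1.42.0 and limma 3.58.1 as alternatives, and with Benjamini-Hochberg adjustment over all 12230 genes tested of 20999. The code was tested on counts drawn from the libraries' own means. CPM used TMM-scaled library sizes, and the floor of 3 counts lay between 0.275 and 0.457 CPM.

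The regions, the gene lists and the rule for named genes were chosen with earlier results of these data known. Named genes were the linked genes with the 15 largest rises and 10 largest falls against adult, those with 3 or more regions, those of the 10 highest-scoring regions (1 is not reported here), those in the gene lists, and genes with a region at the TSS. The last were added after their values were seen. The rule for sequences asked for bases of the regions at their strongest repopulation ATAC peak. No genome was used, so RefSeq promoter windows (GRCm38.p6) that overlap a region were printed in their place, a choice made after the values were seen, with a window for 328 of the 429 linked genes. Labels call the RNA samples separate biological replicates. Headers of the adult H3K27ac lists carry the word vehicle, and the header of repopulation H3K27ac replicate 1 gives an age of 80 days where the label gives 90. All columns of the tables used were matched to samples.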

Additional observations from a re-analysis of the deposited data

How the results depend on the processing

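Leaving out any 1 of the other 10 H3K27ac lists gave 467 to 606 regions, the most without cuprizone Ki67Positive replicate 2, and widening the other peaks by 500 bp gave 418. Keeping only scores at or above the list's median left 98 regions, of which 42.9% overlapped the repopulation, 29.6% the PND8 and 30.6% the adult ATAC list. Asking for at least 50% cover by replicate 2 left 341 regions, of which 57.5% overlapped the repopulation list, and starting from replicate 2 gave 31.8% with the adult list. With at least 100 bp of ATAC overlap the repopulation, PND8 and adult shares were 54.3%, 35.7% and 29.4%, and with the ATAC peaks at or above each list’s median score 34.6%, 14.9% and 9.96%. Of regions over 5 kb from other peaks, an alternative chosen after seeing the data, 73.7% overlapped the repopulation and 51.0% the PND8 list. The repopulation share was the highest of the 3 in each of these settings.

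Over 32 settings the share of linked genes higher against PND8 was 1.69 to 2.15 times that of all genes under the same setting, and the share lower 0.742 to 1.12 times. Over 31 settings the share higher against adult was 0.875 to 1.11 times that of all genes, and the share lower 0.906 to 1.39 times. The settings that follow are among these. Asking for a fold of at least 2 (glmTreat) left 6.10% of linked genes higher and 2.03% lower against adult (21 and 7 genes), and 5.81% higher and 1.16% lower against PND8 (20 and 4 genes). Leaving out 1 library gave 15.4% to 18.4% higher and 15.4% to 19.8% lower against adult, and 20.4% to 24.3% higher and 6.57% to 8.86% lower against PND8, with fewer samples in each. The lone library of a group is then assumed to vary like the other groups. DESeq2 gave 20.3% higher and 21.8% lower against adult. With the replicate block the shares were 24.4% and 27.6% against adult and 31.7% and 15.7% against PND8. Same-numbered libraries of different states deviated together with r between -0.008 and 0.097, so the numbers do not pair states. The Ki67 fractions of 1 state did, with r of 0.338 in PND8 and 0.263 in repopulation, and share header codes. Between the repopulating fractions linked genes called went from 9 to 21 with the replicate block and to 30 with the header code as a term (12 by DESeq2). The header code could not be fitted as a batch against adult. For named genes, leaving out 1 library lost 30 calls of 368 values and gained 1, other settings lost 40 and gained 15 of 773, and none reversed. Calls of Plbd1 against adult were lost without any 1 of the 4 libraries compared (adjusted p 0.0962 to 0.276, edgeR), those of Cd24a without adult replicate 1 or either repopulating library (0.0552 to 0.0657), and of Ccnd3, Klf2, Mef2c, Ankdd1b and Hk2 without 1 to 3 libraries.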

Other observations

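Padi2, Chn2 and Aoah stand outside the rule for named genes and were chosen after their values were seen. Padi2, Chn2 and Pag1 were near their adult level in repopulating Ki67Positive cells and lower in PND8 Ki67Positive cells. Padi2, a peptidylarginine deiminase, was 231 and 220 CPM in adult, 42.2 and 41.4 in PND8 Ki67Positive and 313 and 262 in repopulating Ki67Positive libraries. Chn2, a GTPase-activating protein for Rac, was 138 and 124 CPM in adult, 25.003 and 17.57 in PND8 Ki67Positive and 129 and 133 in repopulation. Pag1, a membrane adaptor of Src kinases linked to the highest-scoring region, was 1100.0 and 1094 CPM in adult, 447 and 471 in PND8 Ki67Positive and 1135 and 1176 in repopulation. The log2 differences of repopulation against PND8 were 2.78 for Padi2, 2.62 for Chn2 and 1.33 for Pag1, and against adult 0.35, -0.002 and 0.07. Aoah, a lipid-degrading hydrolase with 2 regions, was lower than in PND8, at 2.20 and 2.20 CPM in adult, 14.1 and 10.2 in PND8 Ki67Positive and 1.73 and 1.44 in repopulation.

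The difference of the Ki67 contrast between repopulation and PND8 was tested for each gene. edgeR called 0 of 12230 genes, with 613 at an unadjusted p under 0.05, and DESeq2 called 3. Of the 344 linked genes tested, edgeR called 0, with 24 at an unadjusted p under 0.05. With the header code as a term, edgeR called 11 of 12156 genes, among them 1 of the 342 linked genes tested, the transcription factor Klf2.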
